A study of Mus musculus with 8 samples.

Results

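The genes described here encode 40 core protein components of the spliceosome: the Sm ring shared by the small nuclear ribonucleoprotein particles (snRNPs), the proteins of the U1, U2, U5 and U4/U6 particles, the factors that read the branch point and the 3′ splice site, the Prp19 complex with its partners in activation, and *Snrnp35* of the minor U11 particle. They were chosen by gene symbol from a list of names, a rule that uses no measured value although the list was drawn up with earlier results of these data known, and all 40 were among the 40840 genes counted and among the 19104 genes that passed a filter on low counts and were tested. They were measured by RNAseq in whole testes of 12-day-old (P12) mice, 4 wild type and 4 *Tra2b-cPEko*, and the mice of a genotype are named A to D. The mice called wild type had the genotype Tra2bPE fl/+, a floxed poison exon of *Tra2b* beside an unmodified copy with no Cre listed, and the background was C57BL/6J. The *Tra2b-cPEko* mice carried a floxed and a deleted copy of the poison exon (Tra2bPE fl/-) and Vasa-Cre. Vasa-Cre is active in germ cells, so somatic cells (Sertoli, Leydig, peritubular and others) kept the exon, on the floxed copy only. Somatic cells of the wild type mice carried it on both copies. A whole-testis value mixes germ cells and somatic cells. In such bulk samples, fewer cells of a type and less RNA per cell cannot be told apart.

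The spliceosome removes introns from pre-mRNA. U1 recognises the 5′ splice site, SF1 and the U2AF dimer recognise the branch point and the 3′ splice site, U2 with its SF3A and SF3B complexes then binds the branch point, and the U4/U6.U5 tri-snRNP joins before the Prp19 complex and helicases rearrange the machine into its active form. The Sm proteins form a ring around the snRNAs of U1, U2, U4 and U5 that is assembled in the cytoplasm by the PRMT5 methylosome and the SMN complex. Tra2β is a splicing activator that acts with this machinery, and inclusion of the poison exon of its own gene keeps its level down.

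Depth on genes ranged from 36757386 to 59101569 reads. The 40 genes together took 0.609%, 0.631%, 0.597% and 0.597% of these reads in wild type mice A to D and 0.592%, 0.598%, 0.585% and 0.592% in *Tra2b-cPEko* mice A to D. Values below are CPM, the reads of a gene relative to the total of its library after scaling by TMM factors. Summed over the 40 genes they were 6069, 6267, 6003 and 5977 CPM in wild type mice A to D and 5932, 5996, 5858 and 5923 CPM in *Tra2b-cPEko* mice A to D. The 2 ranges overlapped, since *Tra2b-cPEko* mouse B lay above wild type mouse D, and the means differed by -2.49% (6079 ± 131.5 against 5927 ± 56.3 CPM; SD, n = 4). The spread between mice was small. The median SD of log2 CPM within a genotype was 0.063 over the 40 genes, against 0.076 for the 8871 genes in the same CPM range and 0.12 for all genes tested.

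The question for each gene was whether its level depended on genotype. edgeR's quasi-likelihood test called none of the 40 at an adjusted p under 0.05, and 30 of the 19104 genes tested (0.157%; 0.0262% lower and 0.131% higher). Before adjustment, 10 of the 40 had a p under 0.05 (25%), against 15.3% of all genes tested. All 10 were lower in *Tra2b-cPEko* testes, as were 7.07% of all genes and 9.04% of genes in the same CPM range with such a p. None of the 40 was higher with such a p, against 8.22% of all genes and 6.61% in that range. The log2 fold change was below 0 for 30 of the 40 genes (24 of 40 with upper-quartile factors, which put *Sf3a3*, *Sf3b3*, *Sf1*, *Prpf3*, *Ddx23* and *Cdc5l* above 0), where it was for 50.3% of all genes and 56.1% of genes in the same CPM range. Its median was -0.038, against -0.0011 over all genes, and moved to -0.021 without wild type mouse B and to -0.019 with upper-quartile factors. For 5 genes, *Snrpg*, *Sf3b6*, *Plrg1*, *Snrpd2* and *Snrpb2*, each *Tra2b-cPEko* mouse was below each wild type mouse, which held for 4.18% of all genes and 5.68% of those in the same CPM range. The reverse held for none of the 40 and for 4.36% of all genes. Under DESeq2, which the study used, 2 of the 40 genes were called and both were lower, *Snrpg* (adjusted p = 0.0185) and *Sf3b6* (adjusted p = 0.0329), where DESeq2 called 2.79% of the 18149 genes with an adjusted p, 1.14% as lower and 1.66% as higher. These calls were not stable when 1 mouse was left out. DESeq2 then called between 0 of the 40 genes (without wild type A or B or *Tra2b-cPEko* B or C) and 4 (without wild type C). *Snrpg* was called in 3 of the 8 such fits and *Sf3b6* in 2. Their log2 fold changes in edgeR fits without 1 mouse stayed between -0.225 and -0.163 (*Snrpg*) and between -0.228 and -0.160 (*Sf3b6*). limma-voom called none.

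**Figure D1:**
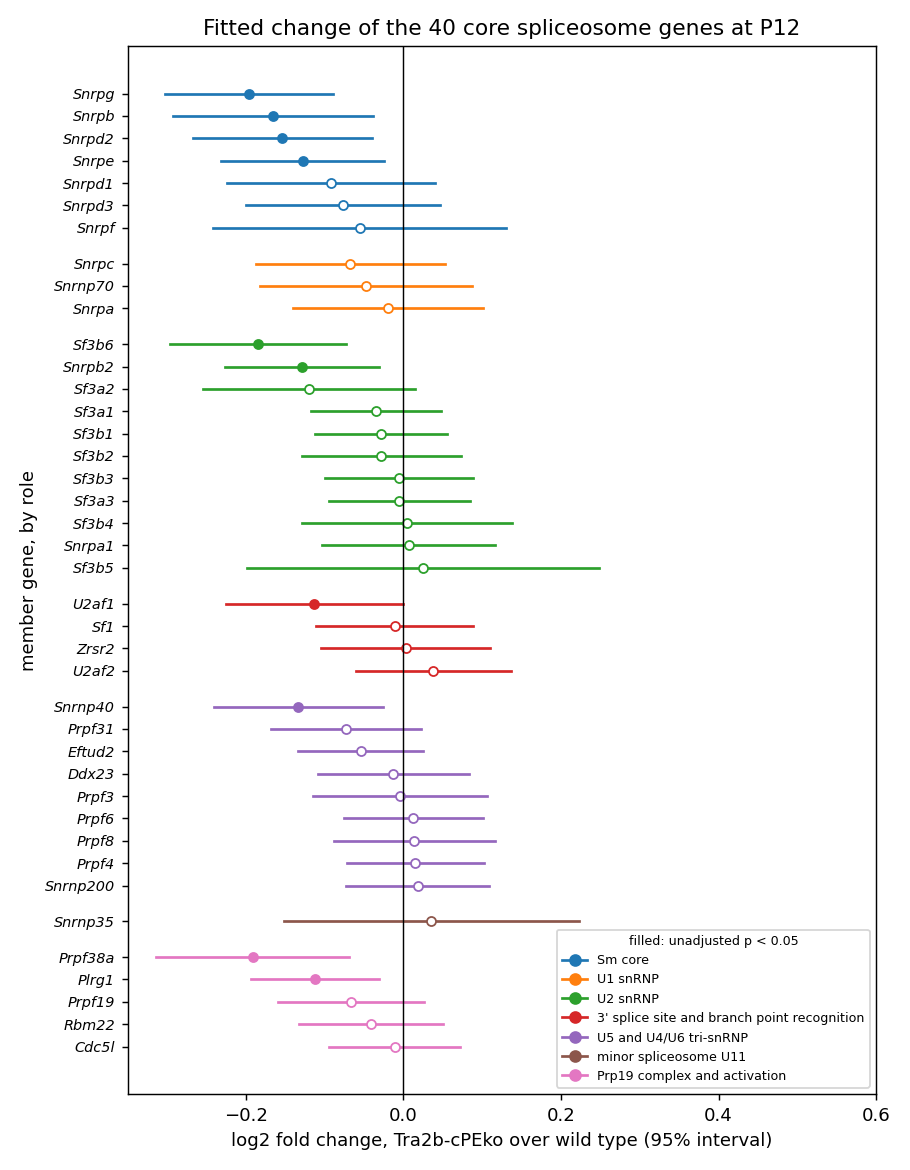
Log2 fold change of each of the 40 genes, *Tra2b-cPEko* over wild type, on the x axis, with its 95% confidence interval from edgeR as a line, genes arranged and coloured by role on the y axis, and filled points for an unadjusted p under 0.05. The 7 Sm genes and the 5 genes of the Prp19 group all lie below 0 (*Cdc5l* above it with upper-quartile factors), whereas the large U5 proteins *Prpf8* and *Snrnp200* lie close to it.

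The Sm core had the most displaced values of the roles. All 7 Sm genes had a log2 fold change below 0 (median -0.13), under every scaling tried, and 4 of them had an unadjusted p under 0.05 (57.1%, against 9.04% of all genes in the same CPM range that were lower with such a p and 20.7% of those with a transcript of up to 1500 bases, as 6 of the 7 have). Summed over the 7 genes, the level was 670, 699, 615 and 656 CPM in wild type mice A to D and 599, 591, 584 and 631 CPM in *Tra2b-cPEko* mice A to D, a change of -8.92% between the means. Only *Tra2b-cPEko* mouse D reached into the wild type range, where mouse C was lowest. Wild type mice A and B were highest, and the same mice stood apart from C and D in markers of pachytene spermatocytes, given below.

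*Snrpg* encodes SmG and lies on the plus strand of GRCm39 at chr6:86348286-86356310. It had 79.8, 74.2, 72.3 and 71.6 CPM in wild type mice A to D and 68.6, 62.8, 64.8 and 63.6 CPM in *Tra2b-cPEko* mice A to D. Each *Tra2b-cPEko* mouse lay below each wild type mouse. The means were 74.5 ± 3.71 and 65.0 ± 2.54 CPM (SD, n = 4), and the log2 fold change was -0.20 (95% confidence interval -0.30 to -0.090), with an adjusted p of 0.114 from edgeR. An exact two-sided permutation test of its log2 CPM gave p = 0.0286, the smallest that 4 mice against 4 allow. This value follows from the lack of overlap, and any gene without overlap between the genotypes gives it.

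*Snrpd2* encodes SmD2, at chr7:18880939-18887467 on the plus strand, and shares exonic sequence with *Qpctl* on the other strand. Its level was 82.7, 88.5, 77.4 and 75.5 CPM in wild type mice A to D and 74.3, 70.9, 72.6 and 73.3 CPM in *Tra2b-cPEko* mice A to D. The ranges did not overlap, with a gap of about 1 CPM between wild type mouse D and *Tra2b-cPEko* mouse A, and the log2 fold change was -0.15 (adjusted p = 0.213 from edgeR). For *Snrpb*, which encodes SmB at chr2:130013547-130021323 on the minus strand, the 4 wild type values were 223, 256, 213 and 236 CPM and the 4 *Tra2b-cPEko* values 216, 201, 195 and 217 CPM. Here the ranges overlapped, and the log2 fold change was -0.17 (adjusted p = 0.226 from edgeR). *Snrpe*, the SmE gene at chr1:133528369-133538032 on the minus strand, had 75.5, 72.3, 67.9 and 69.7 CPM in wild type and 64.2, 63.6, 64.4 and 68.9 CPM in *Tra2b-cPEko* mice. Its log2 fold change was -0.13 (adjusted p = 0.247 from edgeR), and *Tra2b-cPEko* mouse D stood inside the wild type range. The remaining Sm genes, *Snrpd1*, *Snrpd3* and *Snrpf*, had log2 fold changes of -0.092, -0.076 and -0.056 with intervals that held 0. *Snrpf* had one of the wider ranges, 63.6 to 76.7 CPM in wild type and 61.4 to 80.2 CPM in *Tra2b-cPEko* mice.

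**Figure D2:**
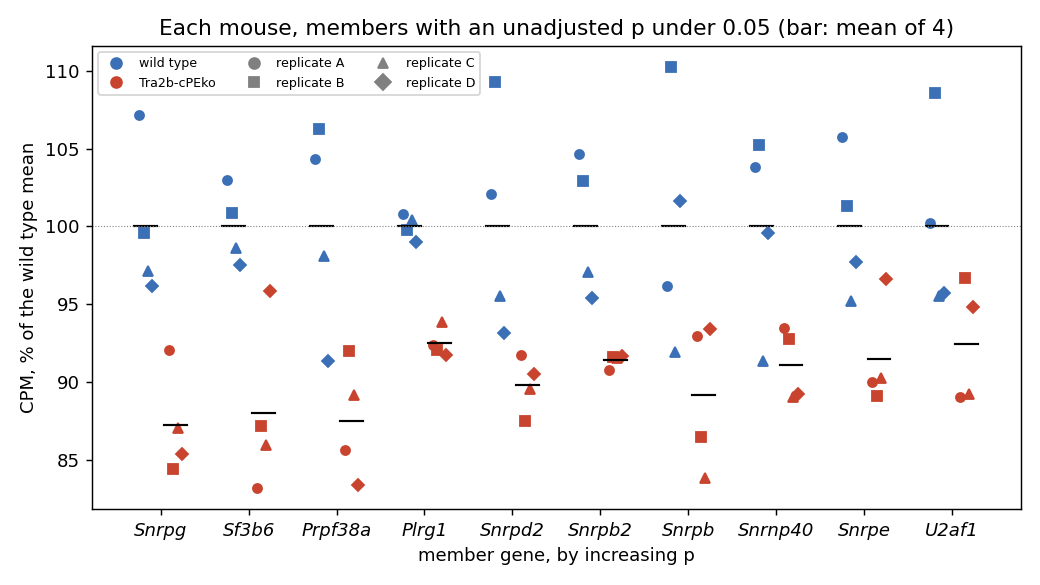
CPM of the 10 genes with an unadjusted p under 0.05 as a percentage of the wild type mean (y axis), 1 point per mouse with a marker shape for each replicate letter, a bar at the mean of each genotype, and genes in order of increasing p. The genotypes do not overlap for *Snrpg*, *Sf3b6*, *Plrg1*, *Snrpd2* and *Snrpb2*, and overlap in part for the others.

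The 3 proteins particular to U1 had log2 fold changes of -0.019 (*Snrpa*), -0.067 (*Snrpc*) and -0.048 (*Snrnp70*), none with a p under 0.05. *Snrnp70* was 383, 436, 347 and 372 CPM in wild type and 379, 383, 353 and 373 CPM in *Tra2b-cPEko* mice, so its ranges overlapped fully apart from wild type mice B and C.

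Of the 11 U2 genes, 8 had a log2 fold change below 0 (72.7%, against 56.1% of genes in the same CPM range). With upper-quartile factors *Sf3a3* (0.0131) and *Sf3b3* (0.013) were above 0 as well. An unadjusted p under 0.05 was found for 2 of the 11 (18.2%, against 9.04% in that range that were lower with such a p). *Sf3b6* encodes the small SF3B subunit p14 that sits at the branch point adenosine, and lies at chr12:4867516-4877669 on the plus strand. It had 57.3, 56.1, 54.9 and 54.3 CPM in wild type mice A to D and 46.3, 48.5, 47.8 and 53.4 CPM in *Tra2b-cPEko* mice A to D. *Tra2b-cPEko* mouse D lay close to the wild type mice and the other 3 well below them. The means were 55.7 ± 1.35 and 49.0 ± 3.04 CPM (SD, n = 4), with a log2 fold change of -0.18 (95% confidence interval -0.30 to -0.073; adjusted p = 0.142 from edgeR). *Snrpb2* encodes U2B″, which binds U2 snRNA, at chr2:142904904-142915166 on the plus strand. Its values were 63.2, 62.2, 58.6 and 57.6 CPM in wild type and 54.8, 55.3, 55.3 and 55.4 CPM in *Tra2b-cPEko* mice, with a log2 fold change of -0.13 (adjusted p = 0.221 from edgeR). The 4 *Tra2b-cPEko* mice were within 1 CPM of each other, below all wild type mice. *Snrpa1*, whose protein pairs with U2B″ on U2 snRNA, had a log2 fold change of 0.0064 (95% confidence interval -0.10 to 0.12).

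The large SF3B subunits showed nothing of this size. *Sf3b1*, which encodes the scaffold of SF3B that holds the branch helix, was at 492, 466, 475 and 472 CPM in wild type and 468, 478, 467 and 456 CPM in *Tra2b-cPEko* mice, with a log2 fold change of -0.029 (95% confidence interval -0.11 to 0.055). *Sf3b2* and *Sf3b3* gave -0.028 and -0.0054. *Sf3b5*, another small SF3B subunit, had the widest spread of the 40 genes (SD of log2 CPM 0.175 within genotypes), with 41.3 ± 5.25 CPM in wild type and 42.0 ± 5.01 CPM in *Tra2b-cPEko* mice (SD, n = 4), and its interval ran from -0.20 to 0.25. Set against *Sf3b1* in the same library, *Sf3b6* had 11.7, 12.0, 11.6 and 11.5 reads per 100 *Sf3b1* reads in wild type mice and 9.90, 10.1, 10.2 and 11.7 in *Tra2b-cPEko* mice, a pair that was chosen after its values were seen.

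Of the factors of the 3′ splice site and branch point, *U2af1* and *Sf1* had a log2 fold change below 0 (*Sf1* above it with upper-quartile factors). *U2af2* and *Zrsr2* were above 0. None was called by edgeR, and differences between these genes were not tested. *U2af1* encodes the small U2AF subunit that reads the AG at the end of the intron, and lies at chr17:31866036-31878236 on the minus strand. It had 82.5, 89.4, 78.6 and 78.8 CPM in wild type and 73.3, 79.6, 73.5 and 78.1 CPM in *Tra2b-cPEko* mice, with 1 *Tra2b-cPEko* mouse, B, inside the wild type range. Its log2 fold change was -0.11 (adjusted p = 0.325 from edgeR). *U2af2* encodes the large subunit, which binds the polypyrimidine tract, and had the highest log2 fold change of the 40 genes, 0.038 (95% confidence interval -0.060 to 0.14). Its values overlapped, with 304, 336, 305 and 304 CPM in wild type and 324, 315, 311 and 332 CPM in *Tra2b-cPEko* mice. Per 100 *U2af2* reads there were 27.1, 26.6, 25.8 and 25.9 *U2af1* reads in wild type and 22.6, 25.3, 23.6 and 23.5 in *Tra2b-cPEko* mice. These ratios did not overlap, and the pair was likewise chosen after its values were seen, so that no test is given. *Sf3a3* reads per 100 *Sf3a1* reads overlapped, with 50.4, 50.7, 50.3 and 51.2 in wild type and 50.6, 52.3, 50.1 and 53.9 in *Tra2b-cPEko* mice. Ratios of *Snrpg* to *Snrnp200* and of *Plrg1* to *Cdc5l* did not overlap. The CPM of *Snrpg* and of *Plrg1* did not overlap on their own, so these ratios are not a separate result. These pairs were also chosen with values of these data known. A share over all pairs of genes is not given. *Sf1*, the branch point binding protein, and *Zrsr2*, the relative of U2AF1 that serves minor introns, had log2 fold changes of -0.011 and 0.0029.

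Among the 9 genes of U5 and of the U4/U6 particle, 5 had a log2 fold change below 0 and 4 above, with a median of -0.0043. *Snrnp40*, which encodes a WD-repeat protein of U5 (chr4:130253925-130283826, plus strand), was the only one with an unadjusted p under 0.05. Its values were 102, 103, 89.5 and 97.5 CPM in wild type and 91.5, 90.9, 87.2 and 87.4 CPM in *Tra2b-cPEko* mice. The ranges overlapped because wild type mouse C was low, and the log2 fold change was -0.13 (adjusted p = 0.245 from edgeR). *Prpf8*, which encodes the U5 protein at the heart of the catalytic core, had 581 ± 26.6 CPM in wild type and 586 ± 24.0 CPM in *Tra2b-cPEko* testes (SD, n = 4), a log2 fold change of 0.014 (95% confidence interval -0.088 to 0.12). The helicase gene *Snrnp200*, which unwinds U4 from U6, gave 0.018 (95% confidence interval -0.073 to 0.11). *Snrnp35* of the U11 particle had a log2 fold change of 0.035 (95% confidence interval -0.15 to 0.22) at 18.6 to 23.7 CPM in wild type and 19.5 to 23.0 CPM in *Tra2b-cPEko* mice.

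All 5 genes of the Prp19 group had a log2 fold change below 0, with a median of -0.066, but *Cdc5l* was at 0.0072 with upper-quartile factors. Their sum was 624, 627, 619 and 598.5 CPM in wild type mice A to D and 590, 602, 587 and 578 CPM in *Tra2b-cPEko* mice A to D, a change of -4.55%, with *Tra2b-cPEko* mouse B above wild type mouse D. *Plrg1*, which encodes a WD-repeat partner of CDC5L in the Prp19 complex, lies at chr3:82962828-82979675 on the plus strand. It had 84.5, 83.7, 84.2 and 83.0 CPM in wild type and 77.5, 77.2, 78.7 and 76.9 CPM in *Tra2b-cPEko* mice. The 2 sets were far apart for their spread, which was the smallest of the 40 genes (SD of log2 CPM 0.013), although the log2 fold change was only -0.11 (95% confidence interval -0.19 to -0.031; adjusted p = 0.201 from edgeR and 0.0557 from DESeq2). *Cdc5l* itself had a log2 fold change of -0.011 and *Prpf19*, the ubiquitin ligase of the complex, -0.066, both with intervals that held 0.

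*Prpf38a* encodes a protein that joins the spliceosome before activation, and lies at chr4:108418705-108436565 on the minus strand, where it shares exonic sequence with *Orc1* and *Tut4* on the other strand. Its values were 60.9, 62.0, 57.2 and 53.3 CPM in wild type and 49.95, 53.7, 52.0 and 48.6 CPM in *Tra2b-cPEko* mice. *Tra2b-cPEko* mouse B lay just above wild type mouse D, so the ranges touched. The log2 fold change of -0.19 (95% confidence interval -0.31 to -0.069; adjusted p = 0.159 from edgeR) was second in size to that of *Snrpg*.

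For the 30 genes with a p of 0.05 or more, the 95% confidence intervals reached from -0.255 (*Sf3a2*) to 0.249 (*Sf3b5*) on the log2 scale, so changes within each gene's own interval were not resolved with 4 mice against 4. The replicates were separate mice, and no litter or batch is named for them.

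**Figure D3:**
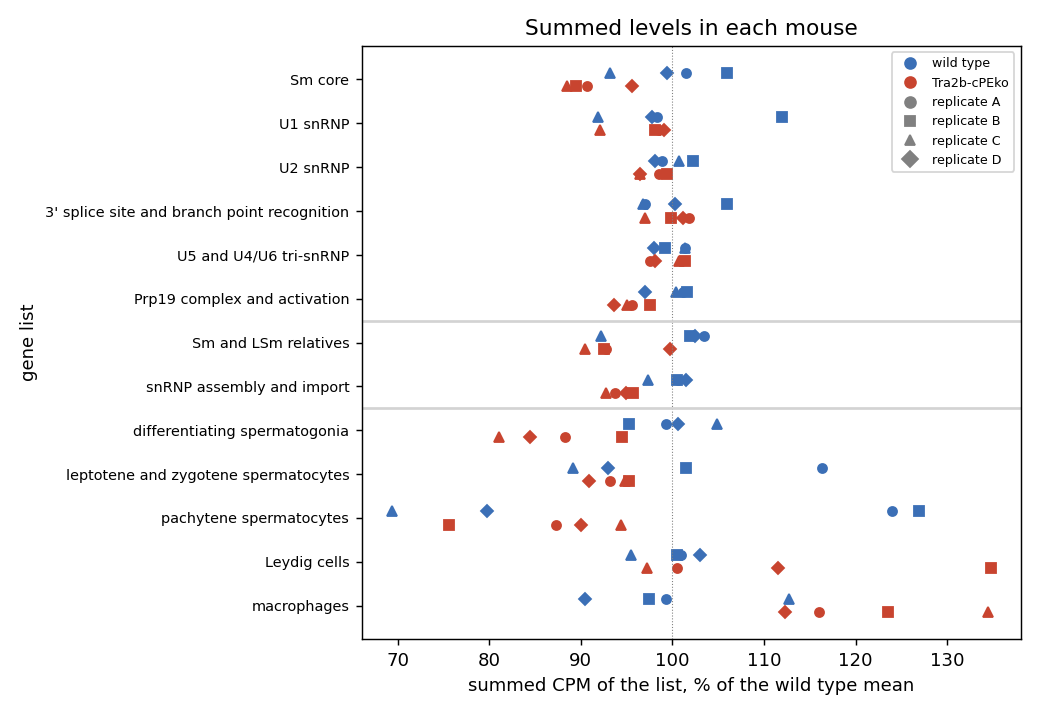
Summed CPM of 6 roles of the core genes, of 2 further lists of snRNP genes and of 5 lists of cell type markers (y axis), as a percentage of the wild type mean (x axis), with 1 point per mouse, blue for wild type and red for *Tra2b-cPEko*, and a marker shape for each replicate letter. The snRNP assembly genes and the markers of differentiating spermatogonia separate by genotype, while the Sm core overlaps in *Tra2b-cPEko* mouse D. The other pathway lists and the markers of undifferentiated spermatogonia, Sertoli, peritubular and stromal, and endothelial cells are not drawn. Their summed CPM differed less between the genotype means than that of the drawn pathway and marker lists.

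Other genes of the pathway also lay mostly below 0. Of 97 further spliceosome and snRNP assembly genes, 96 were in the files and 95 were tested. edgeR called none of them, and 12 had an unadjusted p under 0.05, all lower (12.6%, against 7.07% of all genes tested). The log2 fold change was below 0 for 73 of the 95 (76.8%, against 50.3% of all genes and 56.1% in that range) and the median was -0.039. The genotypes did not overlap for 9 genes that were lower, against 4.18% of all genes and 5.68% in that range. They did not overlap for 2 that were higher, *Cwc22* and *Ddx42*, against 4.36% of all genes. These 2 were named after their values were seen. DESeq2 called 3, all lower: *Wdr77*, *Prmt5* and *Lsm8* (1.14% of all genes were called lower). By role, the genes that assemble and import snRNPs had the lowest median, -0.079, with 16 of 17 below 0. Their sum was 1128, 1127, 1091 and 1137 CPM in wild type mice A to D and 1050, 1073, 1039 and 1064 CPM in *Tra2b-cPEko* mice A to D, which did not overlap. *Prmt5*, the arginine methyltransferase that modifies Sm proteins, had 101.6 ± 2.90 CPM in wild type and 89.99 ± 2.81 CPM in *Tra2b-cPEko* testes (SD, n = 4), with a log2 fold change of -0.17 (adjusted p = 0.105 from edgeR). *Wdr77*, its partner in the methylosome, had 146.8 ± 4.83 and 128 ± 5.33 CPM (SD, n = 4) and a log2 fold change of -0.20 (adjusted p = 0.0912 from edgeR). For both, the genotypes did not overlap.

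The median was -0.064 for the Sm and LSm relatives, with *Lsm8* of the U6 LSm ring having the smallest p (log2 fold change -0.17, adjusted p = 0.144 from edgeR). *Snrpn* of that list had at most 2 reads in a library and was not tested. The further U1, U2 and branch point factors had a median of -0.029, with *Phf5a* of SF3B at -0.18 (adjusted p = 0.175 from edgeR). The further tri-snRNP factors had -0.0094, with the cyclophilin gene *Ppih* at -0.14 (adjusted p = 0.271 from edgeR), and the genes of activation, catalysis and release had -0.020, with *Bud31* at -0.14 (adjusted p = 0.232 from edgeR). The minor spliceosome genes had a median of -0.048, with *Snrnp25* of U11/U12 at -0.20 (adjusted p = 0.242 from edgeR).

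Of the 40 genes, those with a short transcript had the lowest fold changes. For the 10 genes with a canonical GENCODE transcript of up to 1500 bases (6 of them Sm genes), the median log2 fold change was -0.12, 9 were below 0 and 6 had an unadjusted p under 0.05. For the 14 genes between 1500 and 3000 bases the median was -0.044 and 4 had such a p, and for the 16 longer genes the median was -0.011 and none did. The other genes in the same CPM range had the same order, with medians of -0.062 for 763 short, -0.033 for 2284 intermediate and 0.0021 for 5603 long genes. Among all genes of that CPM range, 79.3% of the short ones were below 0, and 20.7% of the short, 12.3% of the intermediate and 6.05% of the long ones were lower with an unadjusted p under 0.05. Across genes, log2 fold change and log2 transcript length had Pearson's r = 0.63 and Spearman's rho = 0.63 over the 40 genes, and 0.29 and 0.31 over the 8690 genes of the CPM range with a length. The points share the same 8 libraries and are not independent. With the length of all annotated exons of a gene together, which counts retained introns, r was 0.31 and rho 0.25 over the 40 genes.

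After the median of the other genes in the same length class was subtracted, the median over the 40 genes was -0.015 and 26 remained below 0. The Sm core was then at -0.079, with 6 of 7 below 0, *Snrpg* at -0.13, *Sf3b6* at -0.12 and *Prpf38a* at -0.16. By mouse, mean log2 CPM of the short minus the long of the 40 genes was -0.96, -0.99, -1.07 and -1.02 in wild type mice A to D and -1.14, -1.11, -1.15 and -1.05 in *Tra2b-cPEko* mice A to D, where wild type mouse C and *Tra2b-cPEko* mouse D overlapped. In other genes of the CPM range the same difference was -0.37, -0.29, -0.49 and -0.43 in wild type and -0.44, -0.49, -0.49 and -0.45 in *Tra2b-cPEko* mice, with wild type mice A and B standing above the rest. The share of reads assigned to no counted feature, which may include reads in introns, was 12.4% to 12.8% in wild type and 13.2% to 13.6% in *Tra2b-cPEko* libraries. The part of transcript length, library composition and reads assigned to no counted feature in the lower values was not tested.

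**Figure D4:**
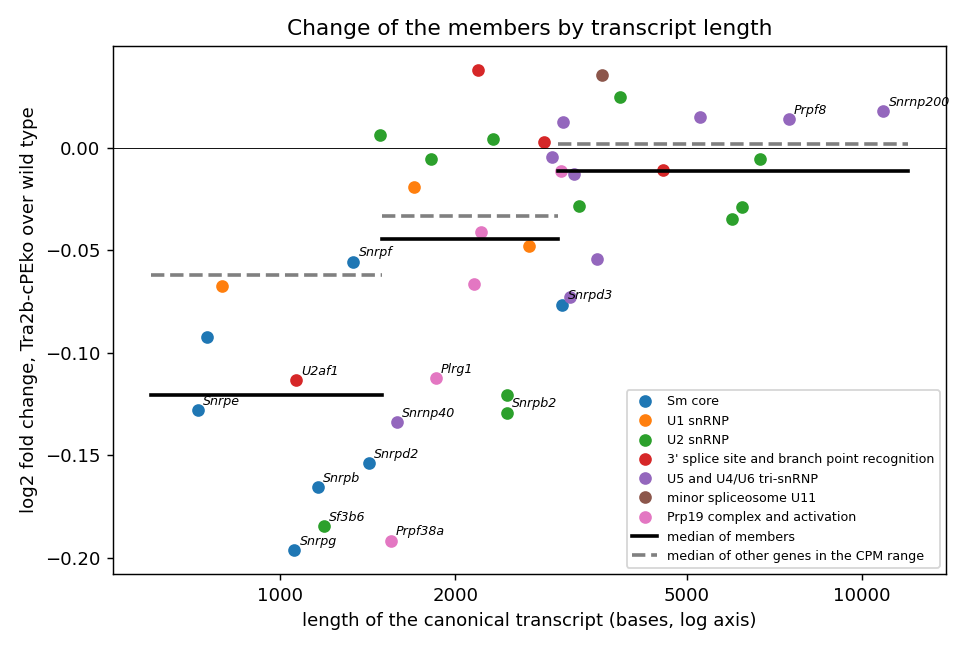
Log2 fold change (y axis, *Tra2b-cPEko* over wild type) against the length of the canonical transcript in bases (x axis, log scale), with 1 point for each of the 40 genes, coloured by role. Black lines give the median of the 40 genes in each length class (-0.12, -0.044 and -0.011) and dashed grey lines that of the other genes in the same CPM range (-0.062, -0.033 and 0.0021).

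Markers of testis cell types were read from the same libraries. No marker was at 0 in any library, and Sertoli cell markers, of which *Clu* was the most abundant, summed to between 6432 and 7225 CPM, in keeping with the tissue label. The 13 markers of undifferentiated spermatogonia had 8 below 0 and a median of -0.049, with 1 lower at an unadjusted p under 0.05. Led by *Foxo1*, they summed to 412, 401, 475 and 482.5 CPM in wild type mice A to D and 428, 438, 420 and 441 CPM in *Tra2b-cPEko* mice A to D, which lay within the wild type range. The 8 markers of differentiating spermatogonia were all below 0 (median log2 fold change -0.19, 3 with an unadjusted p under 0.05, against 7.07% of all genes that were lower with such a p, most abundant gene *Ccnd2*), and *Sohlh1* of this list passed edgeR's test (adjusted p = 0.0341). They summed to 777.5, 746, 821 and 787 CPM in wild type mice A to D and 691, 740, 634 and 661 CPM in *Tra2b-cPEko* mice A to D, with no overlap. The 22 markers of leptotene and zygotene spermatocytes, led by *Tex15*, had 19 below 0, a median of -0.10 and 5 lower with an unadjusted p under 0.05 (22.7%, against 7.07% of all genes), and DESeq2 called *Stag3* lower (adjusted p = 0.0256). They summed to 3670, 3201, 2812 and 2934 CPM in wild type and 2939, 3005, 2990 and 2869 CPM in *Tra2b-cPEko* mice. For the 11 pachytene markers tested, led by *Hspa2*, 9 were below 0, with a median of -0.28 and 1 with an unadjusted p under 0.05. The full pachytene list summed to 410, 419, 229 and 263 CPM in wild type mice A to D and 288, 250, 312 and 297 CPM in *Tra2b-cPEko* mice A to D. Wild type mice A and B thus stood apart from C and D in these markers, as they did in the difference between short and long genes. On the somatic side, Sertoli markers were below 0 for 9 of 12 (median -0.042), peritubular and stromal markers above 0 for 10 of 11 (median 0.079) and endothelial markers above 0 for 9 of 10 (median 0.049). The 11 macrophage markers were all above 0 (median 0.26, 6 with an unadjusted p under 0.05, against 8.22% of all genes that were higher with such a p, most abundant gene *Mrc1*), with *Csf1r* and *Cx3cr1* called by DESeq2. They summed to 165, 162, 187 and 150 CPM in wild type and 193, 205, 223 and 187 CPM in *Tra2b-cPEko* mice. The 7 Leydig cell markers, led by *Nr5a1*, had 5 above 0 and a median of 0.40, and *Lhcgr*, whose genotypes did not overlap, was called by DESeq2 (log2 fold change 0.46 from edgeR, DESeq2 adjusted p = 0.00851). The Leydig markers summed to 622, 619, 588 and 634 CPM in wild type and 619, 830, 599 and 687 CPM in *Tra2b-cPEko* mice. The part of cell composition in the lower values of the spliceosome genes was not tested.

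The 40 genes differ in abundance. Per kilobase of all annotated exons, the highest level within a role in wild type testes was that of *Snrpf* in the Sm core (51.1 ± 4.05 CPM per kb; SD, n = 4), *Snrnp70* in U1 (43.1 ± 4.17), *Sf3b1* in U2 (41.7 ± 0.960), *U2af2* among the 3′ splice site factors (68.2 ± 3.44), *Prpf8* in the tri-snRNP (67.7 ± 3.10) and *Prpf19* in its complex (34.8 ± 1.15). The lowest levels on that scale were those of *Snrpe* (14.4 ± 0.658 CPM per kb), *Snrpc* (8.07 ± 0.542), *Sf3b5* (10.7 ± 1.37), *Zrsr2* (7.79 ± 0.443), *Prpf31* (8.43 ± 0.282) and *Prpf38a* (6.14 ± 0.414). *Snrnp35* had the lowest level per length of all 40. Per kilobase of canonical transcript, *Snrnp70*, *U2af2*, *Prpf8* and *Prpf19* stayed highest and *Sf3b5*, *Zrsr2* and *Snrnp35* lowest, but the other extremes changed. *Snrpb* was then highest in the Sm core at 199.9 ± 15.8 CPM per kb and *Snrpd3* lowest at 22.2 ± 1.47, *Sf3b2* was highest in U2, and *Snrpa*, *Prpf4* and *Rbm22* were lowest in U1, the tri-snRNP and the Prp19 group, so the order of these genes rests on the length used.

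**Figure D5:**
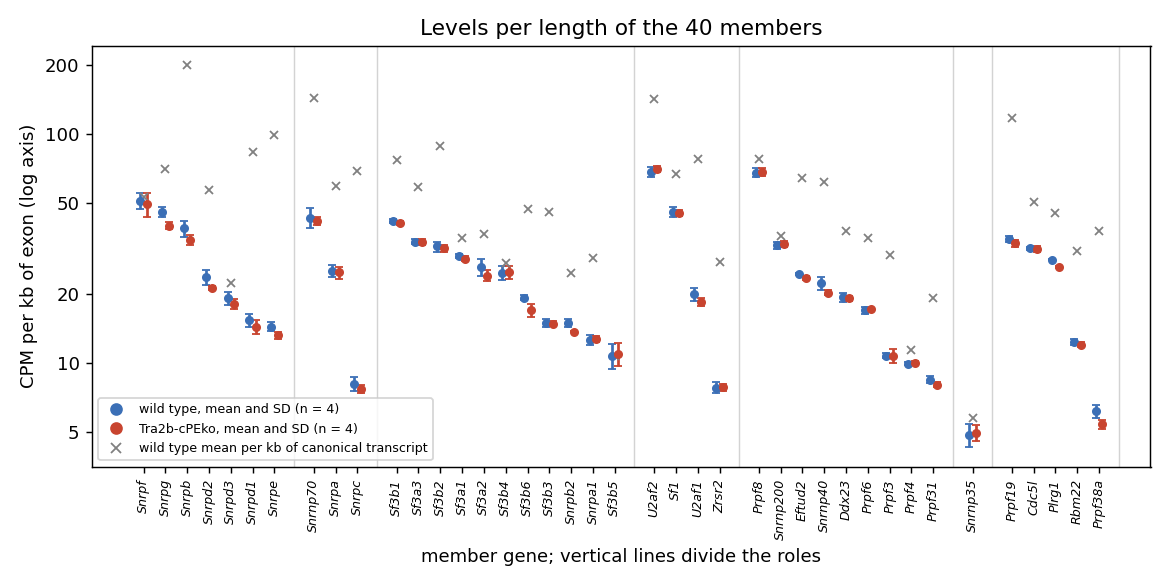
Level of each of the 40 genes in CPM per kb of annotated exon (y axis, log scale), with points at the mean and bars at the SD of 4 mice of each genotype, grouped by role. Grey crosses give the wild type mean per kb of canonical transcript, which leaves *U2af2*, *Prpf8*, *Snrnp70* and *Prpf19* highest in their roles and changes the highest gene of the Sm core and of U2 and the lowest of the Sm core, U1, the tri-snRNP and the Prp19 group.

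Some of these genes have near-identical copies elsewhere or overlap other genes. At 95% identity over at least 50% of the shorter transcript, 13 of the 40 genes have such a partner in GENCODE. For 4 of them a partner is a gene that overlaps them on the opposite strand, and 10 have one that does not, among them *Snrpg* and *Snrpd2* with 2 each, *Snrpe* with 1 and *U2af1* with 5. The overlapping genes *Plekhj1* and *Ciao1* held 69.7% and 14.7% as many reads as *Sf3a2* and *Snrnp200*. The partner of *U2af1* that was counted held 0.0488% as many reads as the gene itself, and those of *Snrpg*, *Snrpd2* and *Snrpe* were not found by name among the genes counted. Exons of 23 of the 40 genes overlap another gene on the opposite strand, and 2 overlap one on the same strand. Whether counting used strand is not stated in the sources used here. Where they overlap their neighbours, *Prpf38a*, *Snrpd2* and *Snrpe* may thus have lost reads as ambiguous or gained some of their neighbours'.

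A feature that the choice of genes did not use was sought in their promoters, from 250 bases before to 50 bases after the transcription start in RefSeq (GRCm38.p6), where 31 of the 40 genes have an entry. The letters CCGGAAG, the core recognised by ETS family factors, were found on either strand in 14 of the 31 promoters (45.2%), against 9.93% of 27025 promoters in the table and 22.9% of 7214 promoters of genes in the same CPM range. CCAAT was found in 41.9% of the 31, against 42.9% in that range, and the GC box GGGCGG in 58.1% against 73.9%. TATAAA was found in 6.45% against 7.61%, the palindromic NRF1 motif in 3.23% against 2.74% and the YY1 letters AAGATGGC in 3.23% against 6.21%. None of these motifs contains another. Of the 8 genes with an unadjusted p under 0.05 and an entry, 4 held CCGGAAG, as did 10 of the other 23. The stretches that end at the base before the start of *Snrpg*, *Sf3b6* and *Snrpb2* are printed because these are 3 of the 5 genes without overlap between genotypes and each holds the letters. All are on the plus strand, 5′ to 3′, at chr6:86371380-86371539, chr12:4817508-4817607 and chr2:143063009-143063068 of GRCm38.p6, with CCGGAAG or its reverse complement in capitals.
Snrpg: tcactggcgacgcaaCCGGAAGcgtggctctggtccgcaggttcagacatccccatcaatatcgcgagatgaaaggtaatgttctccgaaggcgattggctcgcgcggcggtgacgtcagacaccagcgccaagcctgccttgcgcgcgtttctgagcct
Sf3b6: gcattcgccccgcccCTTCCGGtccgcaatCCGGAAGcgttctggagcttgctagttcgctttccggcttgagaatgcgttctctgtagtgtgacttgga
Snrpb2: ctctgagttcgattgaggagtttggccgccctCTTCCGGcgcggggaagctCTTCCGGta
In *Snrpg* the single match begins 145 bases before the start, in *Sf3b6* a pair lies at 85 and 70 bases before it, one on each strand, and in *Snrpb2* a pair lies at 28 and 9 bases before it on the opposite strand. A match of letters describes the sequence and does not show that a factor binds there.

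The gene whose poison exon was deleted, *Tra2b*, had 158, 166, 156 and 176 CPM in wild type mice A to D and 200, 190, 192 and 209 CPM in *Tra2b-cPEko* mice A to D, with no overlap (log2 fold change 0.27, adjusted p = 0.0552 from edgeR and 1.95e-04 from DESeq2). Its paralog *Tra2a* had 111 to 144 CPM in wild type and 65.1 to 73.2 CPM in *Tra2b-cPEko* mice and fell (log2 fold change -0.89, adjusted p = 0.00231 from edgeR). Gene counts include *Tra2b* transcripts with and without the poison exon, so they do not check its deletion. The log2 fold changes of the 40 core spliceosome genes, between -0.20 and 0.038, were all smaller in size than that of *Tra2b*.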

How the data were processed

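Per the labels, RNA was from whole testis and libraries were made with a TruSeq Stranded mRNA kit. The authors deposited raw counts of reads per gene symbol, 1 table per mouse. The submitters' processing notes name HISAT2 2.2.1, SAMtools 1.7.1, HTSeq 2.0.2 and deepTools 3.5.1 with GRCm39. The paper's methods name Salmon, but the tables close with the lines htseq-count writes for reads not assigned to a gene. These lines (no counted feature, ambiguous or not aligned uniquely, among others) hold 31.0% to 33.6% of each table and were left out. The strand setting is not given in the sources used here.

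edgeR 4.0.16 in R 4.3.3 was used with TMM factors, filterByExpr (minimum count 10, minimum total 15) and its robust quasi-likelihood test of genotype with no covariate. Benjamini-Hochberg adjustment ran over 19104 genes, with a threshold of 0.05. Log2 CPM for the exact permutation tests (70 arrangements) used a prior count of 2. Alternatives were DESeq2 1.42.0, limma-voom (limma 3.58.1), RLE and upper-quartile factors, other filters, no robust estimation, a replicate block and fits without each mouse. The scripts were tested on simulated data. Libraries of a genotype differed beyond counting noise in each pair, so none was a copy.

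Genes named are members with an unadjusted p under 0.05, the 3 highest and 3 lowest fold changes, the highest and lowest level per length in each role, the gene with the smallest p in each pathway list, *Tra2b* and *Tra2a*. Others were named for their role or after their values were seen. The members and lists were chosen with earlier results of these data known. Levels per length and positions use GENCODE vM39 on GRCm39. Lengths of canonical transcripts, the length classes with their subtraction, and the DESeq2 fits that leave out a mouse were chosen after seeing the data. Copies were searched with BLAST+ 2.17.0 (at least 200 bases). Figures were drawn in Python 3.11.15 with matplotlib 3.10.9.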

Additional observations from a re-analysis of the deposited data

Results flagged for a closer look

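Of 80 groups of 4 mice (40 genes in each genotype), 4 held a mouse far from the other 3, which is the number that chance gives at 1 in 20. *Snrpe* was at 68.9 CPM in *Tra2b-cPEko* mouse D, against 63.6 to 64.4 CPM in the other 3. *Snrpc* was at 55.4 CPM in the same mouse, against 50.9 to 51.4 CPM. *Snrpb2* was at 54.8 CPM in *Tra2b-cPEko* mouse A, against 55.3 to 55.4 CPM, a gap under 1 CPM in a narrow group. *U2af2* was at 336 CPM in wild type mouse B, against 304 to 305 CPM.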

How the results depend on the processing

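Whether depth or the number of mice limits these results more was not tested. No member was called under any other edgeR or limma setting or without any 1 mouse, where the smallest adjusted p was 0.0691 (*Snrpg*, without wild type mouse C). DESeq2 called 2 members, and 0 to 4 when a mouse was left out: 0 without wild type A or B or *Tra2b-cPEko* B or C, 4 without wild type C, 2 without wild type D, and 1 without *Tra2b-cPEko* A or D. *Snrpg* was called in 3 of these 8 DESeq2 fits and *Sf3b6* in 2. The members' median log2 fold change stayed between -0.053 and -0.019 over all settings, and no member turned from a call in one direction to the other. Members lower with an unadjusted p under 0.05 numbered 7 to 11 without 1 mouse. The 10 such genes and the 7 Sm genes were below 0 in all 16 settings. The median of all genes lay between -0.0056 and 0.017.

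Genes called among all tested moved from 30 to 58 with upper-quartile factors, 123 with no low-count filter, 14 with a mean count of at least 50, 507 with DESeq2, 11 with limma-voom, 12 without robust estimation and 3 to 84 without 1 mouse. The replicate letter as a block gave 67 calls and changed no member's call (adjusted p of *Snrpg* 0.0894). Mice with the same letter did not deviate together (correlations of 0.027, -0.135, -0.039 and 0.116 for A to D), so the letters were not taken to pair them. The causes were not tested.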
